A study of Mus musculus with 12 samples.

Results

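The genes described here are 7 genes that govern whether a T cell enters a lymph node, stays in it or leaves it: the transcription factors Foxo1, Klf2 and Klf3, the sphingosine 1-phosphate receptors S1pr1 and S1pr4, the chemokine receptor Ccr7 and the surface lectin Cd69. They were chosen by name, with earlier results of these data known. Each was represented by 1 row of the array table, and they make up 7 of the 19938 genes measured. RNA came from CD8+CD28low regulatory T cells of C57Bl/6 mice, hybridised to 12 whole-transcript arrays in 4 groups of 3. Activated KO (Aire-deficient) and activated WT (wild-type) cells had been cultured for 96 h with anti-CD3 antibody and allogenic antigen-presenting cells (APC). Native KO and native WT cells were profiled directly after isolation. No group was cultured without stimulation, so the parts of stimulation, culture time and APC in an activation difference cannot be told apart. Aire is known for driving tissue antigens in the thymic epithelium. The strain is the only background that the groups share in the labels. The Aire allele, the age and number of mice behind an array, and whether APC were removed before lysis were not stated in the labels. Values are log2 expression levels, so that a difference of 1 is a doubling, and gene coordinates are those of GRCm38.p6. The labels call the arrays of a group biological replicates. The p-values reflect only how far arrays scatter within their groups, pooled over the 4 groups for each gene. Part of that scatter may be technical.

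Naive and central memory T cells enter lymph nodes through high endothelial venules, a step for which CCR7 reads the chemokines CCL19 and CCL21. They leave along a gradient of sphingosine 1-phosphate, a lipid that is abundant in blood and lymph and scarce in the tissue, and that S1PR1 senses. FOXO1 is active in resting T cells, is held in the cytoplasm after phosphorylation by AKT, and drives Klf2. KLF2 in turn activates S1pr1 and, together with FOXO1, keeps up the lymphoid homing receptors. CD69 binds S1PR1 and pulls it off the cell surface, which holds recently stimulated or tissue-resident cells in place. KLF3 is a related zinc finger factor known mainly as a repressor, and S1PR4 is a second lymphocyte receptor for the same lipid.

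The stretches of 250 bases before the annotated start (RefSeq, GRCm38.p6) are shown for the 2 transcription factors with the largest losses described below and for S1pr4, the member with the smallest. Such windows were found for 4 of the 7 members. Capitals mark matches to the CACCC box bound by KLF and related factors (CACCC on either strand), to the forkhead core GTAAACA, to the MEF2 consensus and to the AP-1 site TGANTCA, all searched on both strands.
Klf2, chr8:72318812-72319061, plus strand: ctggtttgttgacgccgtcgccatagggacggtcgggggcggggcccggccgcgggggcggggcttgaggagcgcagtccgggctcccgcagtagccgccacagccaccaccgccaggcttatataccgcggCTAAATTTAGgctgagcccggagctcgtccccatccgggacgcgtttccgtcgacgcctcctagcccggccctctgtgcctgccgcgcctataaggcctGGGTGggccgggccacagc
Klf3, chr5:64803271-64803520, plus strand: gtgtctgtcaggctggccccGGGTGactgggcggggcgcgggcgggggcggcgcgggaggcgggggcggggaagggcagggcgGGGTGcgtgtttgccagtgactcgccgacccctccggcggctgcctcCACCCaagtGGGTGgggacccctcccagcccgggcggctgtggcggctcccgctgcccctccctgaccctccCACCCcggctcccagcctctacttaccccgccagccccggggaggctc
S1pr4, chr10:81500138-81500387, minus strand: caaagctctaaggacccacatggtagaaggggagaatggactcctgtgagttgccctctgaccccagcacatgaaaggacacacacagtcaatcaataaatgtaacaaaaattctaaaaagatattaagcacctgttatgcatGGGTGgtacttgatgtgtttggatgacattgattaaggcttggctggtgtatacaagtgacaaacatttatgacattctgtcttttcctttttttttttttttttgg
The Klf2 window held 1 CACCC box, which begins 19 bases before the start, and 1 MEF2 match, which begins 118 bases before it; MEF2 factors are known activators of Klf2 downstream of the kinase ERK5. The MEF2 consensus occurred in 2.92% of the 32851 windows of this length, and the CACCC box in 52%. The Klf3 window held 5 CACCC boxes and the S1pr4 window 1. The Foxo1 window (chr3:52268087-52268336, plus strand) held no match to any of the 4 motifs. The forkhead core, found in 3.17% of all windows, and the AP-1 site, found in 6.75%, occurred in none of the 4 members' windows. A match is a description of letters and not evidence of binding.

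Background was set on each array as the level that 95% of its 1027 olfactory receptor genes did not exceed, and lay between 6.12 and 7.31. The highest value belonged to activated KO array 3, which also had the narrowest interquartile range (2.19, against 2.45 to 2.89 on the other arrays) and stood alone on the second principal component, so results that rest on it are given with and without it. The 8 measured of 12 T cell markers were above background on every array. Their mean level was 10.44 to 11.63 on activated KO, 11.25 to 11.65 on activated WT, 11.73 to 11.84 on native KO and 11.71 to 11.83 on native WT arrays. Cd4 was at background on all 12 arrays. Cd28, the receptor by which the cells are named low, read 9.98 to 11.25 on activated KO, 10.80 to 11.06 on activated WT, 11.03 to 11.97 on native KO and 11.21 to 11.94 on native WT arrays, well above background. Of 16 macrophage and dendritic cell markers, 13 to 15 were at background on activated KO and 14 to 15 on activated WT arrays, and of 8 B cell markers 5 to 7 were in each of these groups. Neutrophil markers at background numbered 2 to 10 of 12 on native KO and 3 to 12 on native WT arrays. Xist RNA was low on KO arrays numbered 1 (4.98 activated, 5.26 native) and lay between 9.34 and 11.47 on the other 10 arrays. Xist is transcribed from the inactive X chromosome of female cells, so both low arrays may come from male mice, which would leave sex unbalanced between KO and WT groups. The labels do not give the sex, and its part in the results was not tested.

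The members were lower together after activation. In activated cells 6 of the 7 genes were lower than in native cells of the same genotype (limma, adjusted p under 0.05), in KO and in WT alike, and none was higher. Of all 19938 genes, 20.1% were called in KO cells, 11.4% lower and 8.72% higher, and 20.6% were called in WT cells, 10.9% lower and 9.72% higher. Many of these genes are dim, unlike the members in native cells. Of the 10545 genes above background on at least 3 arrays, 4111 were called in KO cells, 2332 of them lower. In WT cells 4215 were called, 2210 of them lower. In that setting 7 members were called in KO and 6 in WT cells. Higher genes made up 43.5% of the calls in KO and 47.2% in WT cells, or 55.3% and 58.6% after quantile normalization. All 7 genes had their 3 activated arrays below their 3 native arrays in each genotype, which held for 17% of all genes in KO and 23.4% in WT cells. The median of the 7 differences was -2.14 in KO and -2.23 in WT cells, against 0.0216 and -0.0214 over all genes. Because the members were chosen with earlier results known, these comparisons with all genes are descriptions. In bulk RNA, fewer cells of a type and less RNA per cell cannot be told apart. The T cell markers differed by a median of -0.60 (range -1.12 to -0.32, 3 of 8 lower by the test) in KO and -0.31 (range -0.77 to 0.20, 0 of 8 called) in WT cells. The 6 called genes lay outside the range in each genotype. S1pr4, the member not called, lay inside it in each (-0.66 in KO and -0.57 in WT cells). Markers of other cell types moved too. Neutrophil markers were lower for 11 of 12 genes in KO cells (median -1.65, 5 called lower and 1 higher) and for 8 of 12 in WT cells (median -0.44, 0 called lower and 1 higher). Their mean level was 5.74 to 5.79 on activated KO against 5.90 to 7.93 on native KO arrays, and 5.77 to 5.91 on activated WT against 5.46 to 6.50 on native WT arrays. MHC class II genes had a median of -0.90 in KO (3 of 6 called lower) and -0.22 in WT cells (0 called lower and 1 higher, H2-Ab1 at 3.33). H2-Ab1 was at 1.27 in KO cells and not called. NK cell markers had a median of 0.12 in KO (2 of 9 called higher and 2 lower) and 0.06 in WT cells (3 called higher and 1 lower). Of 16 macrophage and dendritic cell markers 9 were higher and 7 lower in KO cells (median 0.01), with 3 called lower, among them Lyz2 at -3.13. In WT cells 6 were higher and 10 lower (median -0.03, 0 called). The part of these cells in the members' losses was not tested. Leaving out both activated arrays numbered 3, a setting added once the data were known, gave 6 genes called in KO and 7 in WT cells.

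**Figure D1:**
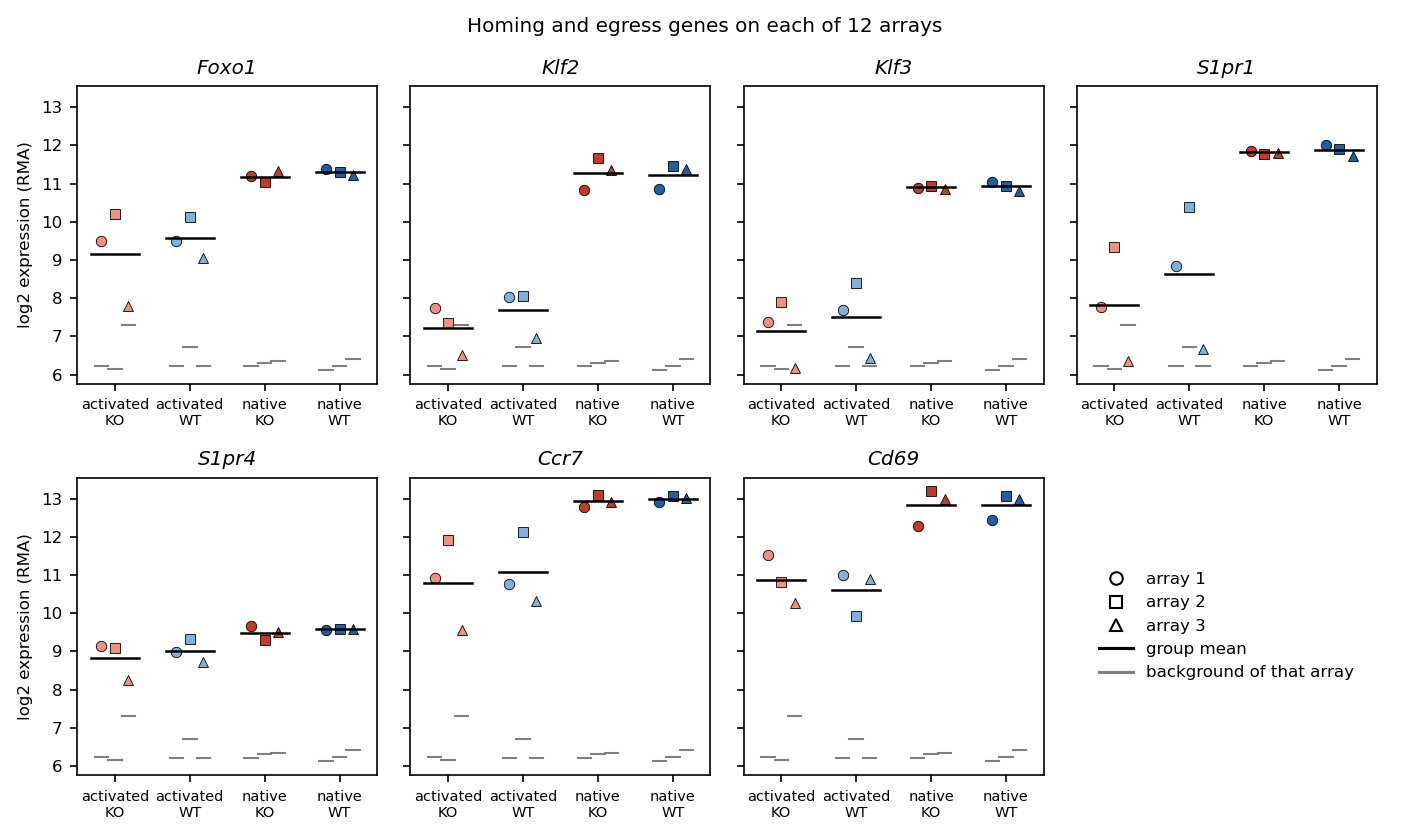
Log2 expression of the 7 genes on each of the 12 arrays, by group; the horizontal bars are group means and the short grey lines each array's background. In every panel the 3 activated arrays of a genotype lie below its 3 native arrays, and on activated KO array 3 Klf2, Klf3 and S1pr1 lie under that array's background.

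Among the transcription factors, Klf2 (chr8:72319062-72321654) had the largest loss. Its level was 7.75, 7.36 and 6.51 on activated KO arrays 1, 2 and 3, against 10.84, 11.67 and 11.34 on native KO arrays. In WT cells it was 8.03, 8.06 and 6.96 after activation, against 10.85, 11.45 and 11.38 in native cells. Native levels of the genotypes interleaved, and the lowest values were those of the activated arrays numbered 3. The difference was -4.07 ± 0.36 (SE, n = 3 per group; limma, adjusted p = 1.26e-05) in KO cells, or 16.8-fold, and -3.55 ± 0.36 (adjusted p = 3.44e-05), or 11.7-fold, in WT cells. By absolute size it stood within the top 0.12% of all genes in KO and the top 0.27% in WT cells. The value on activated KO array 3 lay below that array's background of 7.31, and the KO difference without that array was -3.72.

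Klf3 (chr5:64803521-64832901) had differences close in size to those of Klf2. It read 7.37, 7.90 and 6.17 on activated KO arrays, against 10.90, 10.93 and 10.87 on native KO arrays. The activated WT arrays gave 7.70, 8.40 and 6.45, against 11.05, 10.94 and 10.80 on native WT arrays. The native arrays were tight, with an SD of 0.0307 in KO and 0.126 in WT cells, and the activated arrays were not (SD 0.888 and 0.988). Klf3 fell by 3.75 ± 0.46 in KO cells (SE, n = 3 per group; limma, adjusted p = 0.000153) and by 3.42 ± 0.46 in WT cells (adjusted p = 0.000279). Activated KO array 3 was again under its background; without it the KO difference was -3.26.

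Foxo1 (chr3:52268337-52350109), known to act upstream of Klf2, was lower by a smaller amount. Its activated KO arrays read 9.5, 10.21 and 7.79, against 11.19, 11.03 and 11.32 on native KO arrays. Activated WT arrays read 9.5, 10.13 and 9.06, against 11.38, 11.30 and 11.24 on native WT arrays. On arrays 1 and 2 the activated genotypes had nearly the same level, and KO array 3 stood more than 1 unit below every other activated array. The difference was -2.01 ± 0.47 in KO cells (SE, n = 3 per group; limma, adjusted p = 0.00988), which became -1.33 (adjusted p = 0.00382) without activated KO array 3. The KO call was lost when the 6 KO arrays were fitted alone with the array number as a block (adjusted p = 0.0713). In WT cells it was -1.74 ± 0.47 (adjusted p = 0.0205). That WT call was lost, at limma adjusted p from 0.0527 to 0.0867, when native WT array 1, 2 or 3 or activated WT array 1 or 3 was left out, with values from -1.78 to -1.49.

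The egress receptor S1pr1 (chr3:115710433-115715055) showed the widest spread of all 7 genes after activation. It stood at 7.76, 9.34 and 6.35 on activated KO arrays, against 11.85, 11.79 and 11.80 on native KO arrays. In WT cells it was 8.84, 10.37 and 6.67 after activation, against 12.02, 11.90 and 11.73 in native cells. Native cells thus had nearly 1 level (SD 0.0354 in KO, 0.145 in WT), while the activated arrays of a group spanned 3.00 in KO and 3.71 in WT, with array 2 highest and array 3 lowest in each. The difference was -3.99 ± 0.82 (SE, n = 3 per group; limma, adjusted p = 0.0047) in KO cells, or 15.9-fold, and -3.25 ± 0.82 (adjusted p = 0.0141), or 9.54-fold, in WT cells. Without activated array 3 it was -3.26 in KO and -2.27 in WT cells (limma, adjusted p = 0.0109 and 0.0464).

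S1pr4 (chr10:81497745-81500137) was the exception in size. Its activated KO arrays gave 9.14, 9.08 and 8.25, against 9.67, 9.30 and 9.50 on native KO arrays. Its activated WT arrays gave 8.99, 9.34 and 8.71, against 9.57, 9.59 and 9.60 on native WT arrays. The activated arrays were all below the native ones in each genotype, and every array was well above background. The difference was -0.66 ± 0.22 in KO cells (SE, n = 3 per group; limma, adjusted p = 0.0586, 95% interval -1.15 to -0.17) and -0.57 ± 0.22 in WT cells (adjusted p = 0.103, interval -1.06 to -0.08). Neither passed. The WT difference did pass without activated KO array 3 (limma, adjusted p = 0.0114) and the KO difference when activated KO array 1 (0.0386) or 2 (0.0395), or else activated WT array 2 (0.046), was dropped, with values between -0.82 and -0.57. Without activated KO array 3 the KO difference was -0.38. The KO difference also passed with dim genes left out (0.0377) and with a block for the array number (0.0414). The WT difference also passed with its 6 arrays fitted alone (0.0307, or 0.0367 with the block), with array weights (0.00103) and without both activated arrays numbered 3 (0.0406).

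Ccr7 (chr11:99144199-99155077), the receptor for lymph node entry, stayed far above background in every group. Activated KO arrays read 10.92, 11.92 and 9.55, against 12.79, 13.10 and 12.91 on native KO arrays. Activated WT arrays read 10.77, 12.13 and 10.32, against 12.91, 13.08 and 13.01 on native WT arrays. As for S1pr1, array 2 was the highest and array 3 the lowest of the activated arrays in each genotype. The difference was -2.14 ± 0.52 in KO cells (SE, n = 3 per group; limma, adjusted p = 0.0129), or 4.40-fold, and -1.51 without activated KO array 3. It was -1.93 ± 0.52 (adjusted p = 0.0215) in WT cells. That WT call was lost, at limma adjusted p from 0.0553 to 0.0951, without native WT array 1, 2 or 3 or activated WT array 1 or 3, with values from -1.97 to -1.55.

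Cd69 (chr6:129267324-129275375), often used as a marker of recent stimulation, was lower and not higher after 96 h. It read 11.52, 10.81 and 10.26 on activated KO arrays, against 12.29, 13.20 and 13.00 on native KO arrays. It read 11.01, 9.92 and 10.90 on activated WT arrays, against 12.45, 13.06 and 12.99 on native WT arrays. Its order among the activated WT arrays was unlike that of the receptors: array 2, with the highest S1pr1 and Ccr7, had the lowest Cd69. The difference was -1.97 ± 0.36 in KO cells (SE, n = 3 per group; limma, adjusted p = 0.00253), or 3.92-fold, and -2.23 ± 0.36 in WT cells (adjusted p = 0.0011), or 4.68-fold. Both native groups had their lowest Cd69 and their lowest Klf2 on array 1.

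**Figure D2:**
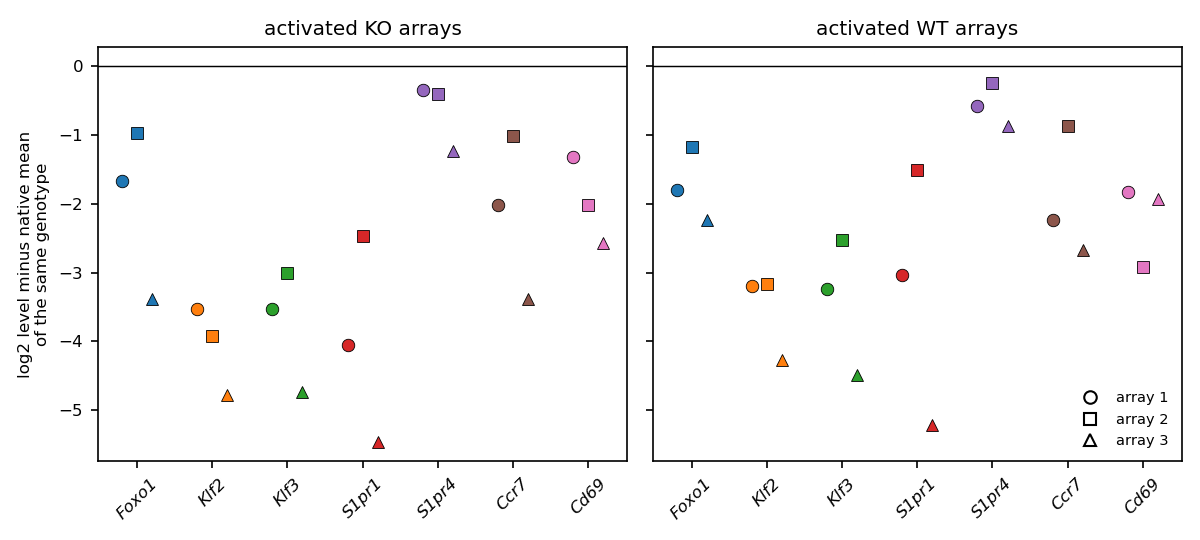
Each activated array's log2 level minus the mean of the 3 native arrays of the same genotype, for the 7 genes (horizontal axis), with KO arrays on the left and WT arrays on the right and marker shapes for the array number. Array 3 is lowest in both genotypes for 6 of the 7 genes; for Cd69 in WT cells array 2 is lowest.

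The spread between activated arrays was shared by the members. The SD was larger in activated than in native arrays for 7 of 7 genes in KO and for 7 of 7 in WT cells. Activated arrays were also less alike over all genes. An array's mean correlation with the others of its group was 0.948 to 0.974 in activated and 0.991 to 0.993 in native KO cells. In WT cells it was 0.979 to 0.987 and 0.994. Activated array 3 had the lowest level in both genotypes for 6 of the 7 genes, all but Cd69, and array 2 the highest in both for 4 (Foxo1, Klf3, S1pr1 and Ccr7). The T cell marker mean moved with this: it was 11.19, 11.63 and 10.44 on activated KO arrays 1, 2 and 3 and 11.38, 11.65 and 11.25 on activated WT arrays 1, 2 and 3. Its part in the members' spread was not tested. The share of all genes with this order or spread was not counted, so neither is shown to be particular to the members.

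No member was called between the genotypes. Between native KO and native WT cells the differences ran from -0.12 for Foxo1 to 0.06 for Klf2, with 6 of 7 below 0 and 0 of 7 called (limma, adjusted p = 0.999934 in each case; 0 of 7 at an unadjusted p under 0.05). The test called 0% of all genes in that comparison, with 131 at an unadjusted p under 0.05. The KO and WT arrays overlapped for all 7 genes, while 2.12% of all genes had every native KO array above and 4.92% every one below the native WT arrays. For Cd69 the group means were 12.83 in KO and 12.83 in WT cells, and for S1pr1 11.81 and 11.88. The 95% intervals were -0.58 to 0.40 for S1pr4, -0.74 to 0.85 for Klf2, -0.80 to 0.80 for Cd69, -1.04 to 0.98 for Klf3, -1.15 to 0.90 for Foxo1, -1.21 to 1.08 for Ccr7 and -1.86 to 1.72 for S1pr1. The fit uses 1 spread per gene over native and activated arrays, so the wider scatter of activated arrays widens these native intervals. For S1pr1 the SD was 0.0354 in native KO and 0.145 in native WT cells, against 1.5 and 1.86 after activation. Intervals of this width do not show that the genotypes are alike. Here, in activated cells and in the interaction, the share of all genes at an unadjusted p under 0.05 was itself under 0.05. These tests thus gave fewer low p-values than uniform ones would. Neutrophil markers moved with the native groups, with 12 of 12 above 0 in KO relative to WT cells (median 1.12, 0 called). So did NK cell markers, with 8 of 9 above 0 (median 0.54, 0 called), and MHC class II genes, with 5 of 6 above 0 (median 0.71, 0 called). The macrophage marker Lyz2 differed by 2.19 (limma, adjusted p = 0.999934). Their part in the members' values was not tested.

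Between activated KO and activated WT cells 6 of 7 genes were lower in KO, and 0 of 7 passed (limma, adjusted p = 0.999897 in each case; 0 at an unadjusted p under 0.05). The arrays overlapped for all 7, with 0.858% of all genes fully above and 0.888% fully below in KO. In that comparison 0% of all genes were called and 87 had an unadjusted p under 0.05. The group means of S1pr1 were 7.82 ± 1.5 in KO and 8.63 ± 1.86 in WT cells (SD, n = 3 each), a difference of -0.81 with a 95% interval of -2.60 to 0.98. Klf2 averaged 7.21 ± 0.635 in KO and 7.68 ± 0.625 in WT cells, a difference of -0.47 (interval -1.26 to 0.32), which was -0.12 without activated KO array 3. Foxo1 (-0.40), Klf3 (-0.37), Ccr7 (-0.28) and S1pr4 (-0.19) changed sign without activated KO array 3, to 0.29, 0.12, 0.35 and 0.10. S1pr1 was at -0.07 without that array and at 0.06 without activated WT array 2, which also turned Klf3 (0.07) and Ccr7 (0.25). Cd69 was the gene above 0, at 0.25 (interval -0.54 to 1.05), and turned to -0.07 without activated KO array 1 and to -0.09 without activated WT array 2.

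The activation responses of the genotypes were compared directly through the interaction of genotype and state, the KO response minus the WT response. It ran from -0.74 ± 1.15 for S1pr1 (SE, n = 3 per group) to 0.26 ± 0.51 for Cd69, and 0 of 7 genes passed (limma, adjusted p = 0.999945 in each case; 0 at an unadjusted p under 0.05), as did 0% of all genes, with 86 of them at an unadjusted p under 0.05. The interval for Klf2, -1.65 to 0.59, was the narrowest after that of S1pr4 (-0.79 to 0.60). For every gene, then, the activated groups were the low pair and the native groups the high pair, and within each pair the KO and WT arrays overlapped.

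**Figure D3:**
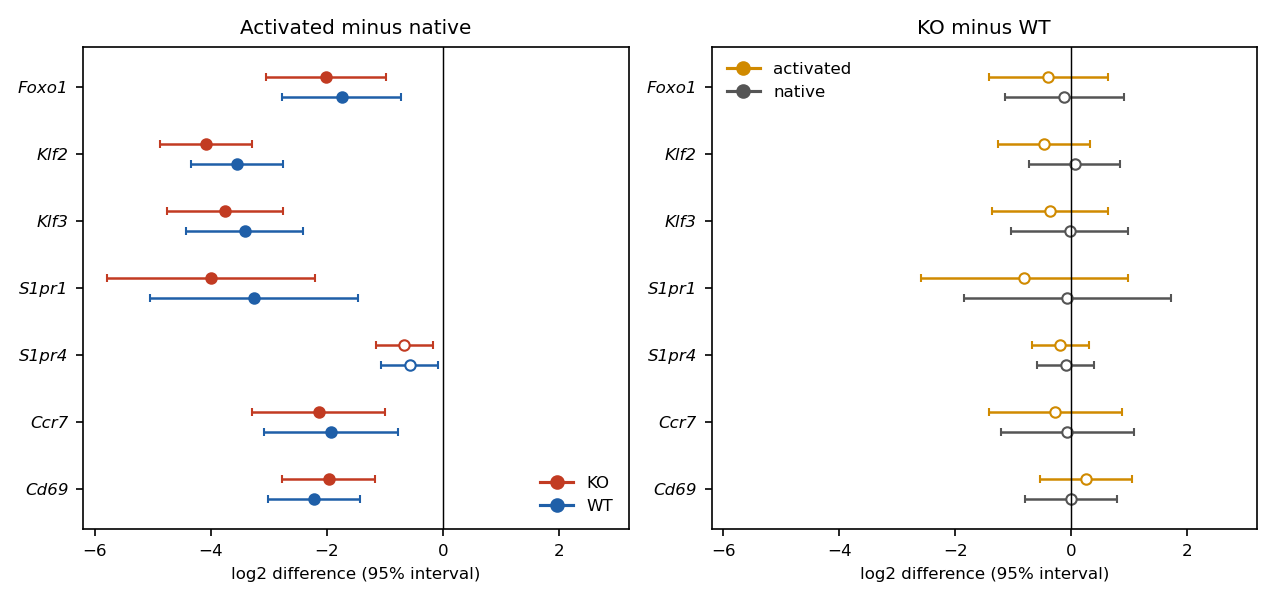
Log2 differences with 95% intervals for the 7 genes, activated minus native on the left (KO above WT) and KO minus WT on the right (activated above native); filled circles passed at a limma adjusted p under 0.05 and open circles did not. In the left panel 6 of 7 genes are filled in each genotype, with S1pr4 open, and in the right panel every interval crosses 0.

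Genes with the most similar course over the 12 arrays were sought by the root mean square distance between log2 values, each gene centred on its own mean, for the 6 members whose group means spanned more than 1. Nearest to Klf2 were Tagap (distance 0.176) and Dnajb9 (0.315), and nearest to Ccr7 were Pecam1 (0.171) and Zbtb20 (0.187). Cd69 had Csrnp1 (0.158) and Ifrd1 (0.222), and Foxo1 had Utrn (0.147) and Ipcef1 (0.166). Klf3 had Ifngr2 (0.351) and Actn1 (0.354). The nearest gene to S1pr1 among all 19938 was another member, Klf3 (0.480), followed by Cd7 (0.533). All genes share the split of these arrays into native and activated cells. They also share the arrays' unlike signal ranges (interquartile range 2.19 to 2.89), so the distances are descriptions.

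Other genes of the pathway were read from 5 lists. For comparison, 11.4% of all genes were called lower and 8.72% higher in KO cells, and 10.9% lower and 9.72% higher in WT cells. Of the 10545 genes left without dim ones, 2332 were called lower in KO and 2210 in WT cells. The list counts were not tested against these shares. Of 27 measured genes that regulate FOXO1 or are its targets, 11 were lower and 2 higher in activated than native KO cells (median -0.67), and 6 were lower and 2 higher in WT cells (median -0.53). Irs2, an insulin receptor substrate induced by FOXO factors, differed by -2.43 ± 0.32 in KO and -2.61 ± 0.32 in WT cells (SE, n = 3 per group; limma, adjusted p = 0.000234 and 0.000128). Il7r, the interleukin 7 receptor chain that FOXO1 maintains, fell by 1.31 ± 0.24 in KO and 1.05 ± 0.24 in WT cells (adjusted p = 0.00225 and 0.00777). Lef1, a factor of naive cells, differed by -1.45 and -1.17, and Pik3ip1, an inhibitor of PI3 kinase, by -1.89 in KO cells. Rictor, a subunit of mTORC2, differed by -1.32 in KO cells, and Skp2, a ubiquitin ligase component that targets FOXO1, rose by 1.00 in WT cells. The WT count of lower genes was 16 and the KO count of higher genes 4 without activated KO array 3, and with arrays centred on their median the KO count of lower genes was 7.

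Of the 22 measured Kruppel-like factors and their partners other than Klf2 and Klf3, 8 were lower and 0 higher in KO (median -0.30) and 9 lower and 0 higher in WT cells (median -0.29). Centring arrays on their median left 5 and 7 lower. Klf6 differed by -1.94 ± 0.41 in KO and -1.91 ± 0.41 in WT cells (SE, n = 3 per group; limma, adjusted p = 0.0057 and 0.00598), Klf13 by -1.67 and -1.63, and Klf11 by -1.42 and -1.23. Klf4, a quiescence factor of CD8 T cells, was at background on all arrays of both activated groups, so its loss is a lower bound set against each array's background. It was at least 2.46-fold lower in KO and at least 2.62-fold lower in WT cells (limma, adjusted p = 0.000551 and 0.000601).

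In the sphingosine 1-phosphate system 3 of 21 genes were lower and 3 higher in KO cells, and 2 lower and 3 higher in WT cells. The shares of lower genes are near those over all genes, 11.4% in KO and 10.9% in WT cells. The medians were -0.02 in each and became positive with quantile normalization (0.03 in each) and with arrays centred on their median (0.04 and 0.05). The other receptors did not follow S1pr1 as a group. S1pr5, known from effector and natural killer cells, was at background after activation and at least 2.67-fold lower in KO and 2.45-fold lower in WT cells (limma, adjusted p = 0.000136 and 0.000332). S1pr2, which restrains migration, rose by 0.87 ± 0.12 in KO and 0.68 ± 0.12 in WT cells (SE, n = 3 per group; limma, adjusted p = 0.000485 and 0.00223). S1pr3 was at background in all 4 groups. Plpp2, a lipid phosphate phosphatase, rose by 2.69 and 2.65, and the transporter Mfsd2b was at background after activation, at least 1.08-fold lower in KO and 1.05-fold lower in WT cells (limma, adjusted p = 0.000363 and 0.00166).

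For lymph node entry and adhesion 14 of 29 genes were lower and 2 higher in KO cells, and 11 lower and 5 higher in WT cells (medians -0.15 and -0.21). Without activated KO array 3 the KO counts were 12 lower and 6 higher. The gut homing receptor Ccr9 was at background after activation and at least 17.2-fold lower in KO and 27.1-fold lower in WT cells (limma, adjusted p = 2.09e-07 and 9.04e-08). Itga4, the alpha 4 integrin chain, differed by -3.87 ± 0.27 in KO and -3.61 ± 0.27 in WT cells (SE, n = 3 per group; limma, adjusted p = 2.07e-06 and 2.87e-06). Cxcr4, the receptor for CXCL12, differed by -2.35 and -1.79, and Gpr183, the oxysterol receptor EBI2, by -2.25 and -2.14.

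Around Cd69, 6 of 19 genes were lower and 2 higher in KO cells, and 7 lower and 2 higher in WT cells (medians -0.57 and -0.54); with arrays centred on their median 4 were lower in each genotype. Il2ra, the high-affinity interleukin 2 receptor chain and another gene of stimulated T cells, rose by 5.55 ± 0.20 in KO and 6.01 ± 0.20 in WT cells (SE, n = 3 per group; limma, adjusted p = 4.47e-08 and 2.04e-08), opposite in sign to Cd69. Jun, an AP-1 subunit, differed by -3.05 and -3.00, and Fos, its partner, was at background after activation and at least 8.29-fold lower in each genotype (limma, adjusted p = 2.48e-06 in KO and 3.41e-06 in WT cells). Itgae, the alpha E integrin chain that marks tissue-resident cells together with CD69, differed by -3.52 and -3.88. Over the 118 genes of the 5 lists 0 were called between KO and WT cells in either state (limma), with 3 native and 1 activated at an unadjusted p under 0.05.

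**Figure D4:**
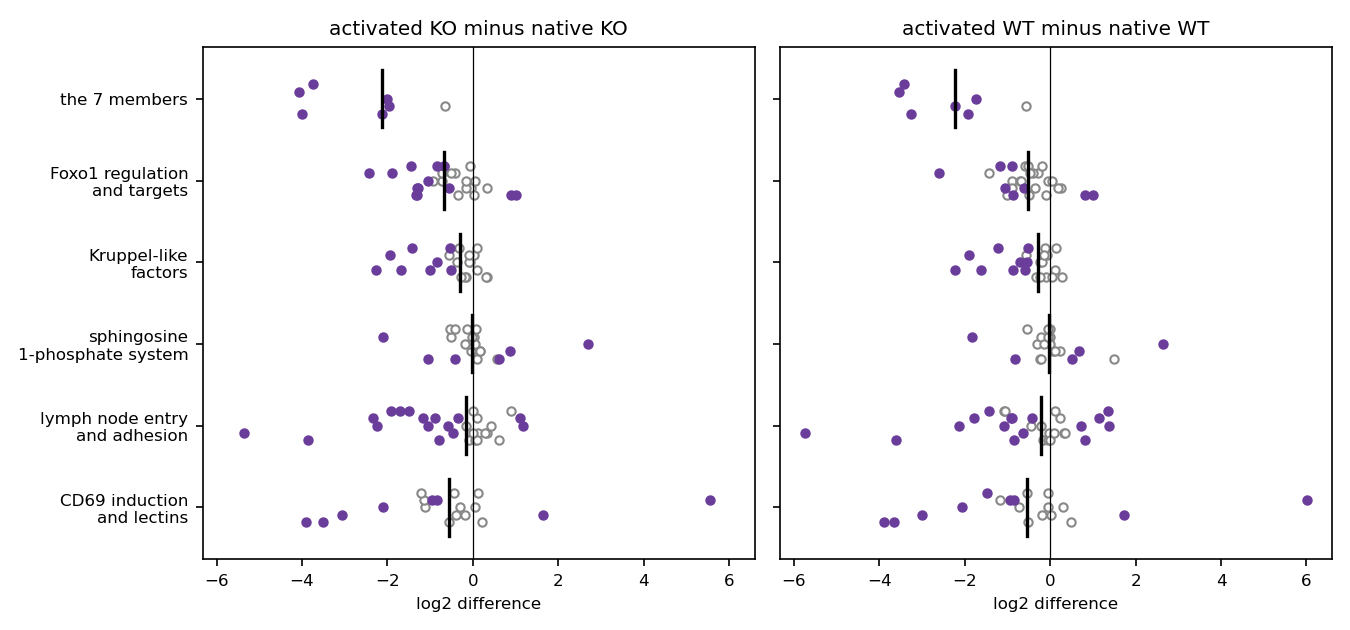
Log2 differences, activated minus native, for the 7 members and the 5 pathway lists, in KO (left) and WT cells (right); filled points passed at a limma adjusted p under 0.05, open points did not, and vertical bars are list medians. The members' median lies at -2.14 in KO and -2.23 in WT cells, and the list medians lie between -0.67 and -0.02.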

How the data were processed

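Per the labels' protocols, total RNA was extracted with Trizol, cleaned on RNeasy columns and labelled as biotinylated sense DNA for Affymetrix whole-transcript arrays. The deposited log2 values (35556 rows, 12 arrays) came from the authors, and the submitters' processing notes name Partek and RMA, without versions or options. RMA compresses differences near background, and an alignment of arrays would hide a change common to most transcripts. Rows were named through the platform annotation, with symbols updated by Entrez identifier (GRCm38.p6): 21789 rows had 1 symbol, 1621 several and 12146 none, and 21698 were matched. The brightest row per gene was kept, which left 19938 genes; the 7 members had 1 row each.

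Group means were fitted over all 12 arrays with limma 3.58.1 in R 4.3.3 (lmFit, eBayes), with Benjamini-Hochberg adjustment over 19938 genes; errors are standard errors of that fit. The fit was tested on simulated data with normal noise of 1 spread per gene in all groups. That setting lacks the wider scatter of the activated arrays, so the test does not cover it. The main fit held no term for the array number, so its differences, p-values and intervals are unpaired. On the data alone, deviations of same-numbered native KO and WT arrays correlated at 0.58, 0.40 and 0.16 across genes. A block for the number, run as an alternative, changed no member's call between the native groups. A gene whose 3 arrays of a group were at background is given as a bound, from each array's background or its own value where higher. The genes named from each list were up to 4 with the largest called differences whose groups did not overlap, per activation comparison; S1pr2, S1pr3 and S1pr5 were named as the remaining receptors, and Il7r in KO cells after its WT value. Alternatives were the replicate block, the 6 arrays compared alone, quantile or median scaling, a filter on dim genes, all rows, a mean over rows, a trended robust prior, array weights and leaving out each array. Members and lists were chosen with earlier results of these data known. The number of arrays limits the precision.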

Additional observations from a re-analysis of the deposited data

How the results depend on the processing

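On activation, 6 members called in KO cells became 5 to 7 and 6 in WT cells became 4 to 7 over all alternatives; leaving out single arrays gave 6 to 7 and 4 to 7. No sign turned in these comparisons. With the replicate number as a block over all 12 arrays 7 members were called in KO cells, S1pr4 at adjusted p = 0.0414, and 6 in WT cells; in the 6 arrays compared with that block, added after the data were seen, 5 in KO cells (Foxo1 lost at 0.0713) and 7 in WT cells. Whether numbers pair the activated arrays was not settled by the data. Their same-number deviations correlated between genotypes at 0.69, -0.02 and -0.01 across genes. Between activated and native arrays of the same number they correlated at 0.34, -0.14 and 0.26 in KO and at 0.23, 0.01 and -0.10 in WT cells. Low Xist was shared by the native and the activated KO array numbered 1 (5.26 and 4.98) and by no other array. It links the states at that number in KO cells and does not bear on the other numbers. The members called between genotypes and in the interaction numbered 0 under every alternative. Gene-wise array weights (limma's default estimate did not converge) turned the KO minus WT difference of Cd69 in native cells to 0.13, and in activated cells those of Klf2 to 0.0868, Klf3 to 0.27, S1pr1 to 0.0909, S1pr4 to 0.20, Ccr7 to 0.41 and Foxo1 to 0.26. They turned the interaction of Klf3 to 0.30, S1pr1 to 0.18, S1pr4 to 0.35, Ccr7 to 0.42 and Foxo1 to 0.42. Without both activated arrays numbered 3 the activated difference of Foxo1 was 0.0407, and the interaction was 0.0388 for S1pr4, 0.0384 for Ccr7 and 0.17 for Foxo1. The cause was not tested. Leaving out single arrays, native KO minus WT ran from -0.14 to 0.28 for Klf2, -0.0969 to 0.0288 for Klf3, -0.18 to 0.00238 for S1pr4, -0.15 to 0.00618 for Ccr7 and -0.19 to 0.27 for Cd69. Activated KO minus WT ran from -0.90 to 0.12 for Klf3, -1.79 to 0.0635 for S1pr1, -0.35 to 0.0965 for S1pr4, -0.84 to 0.35 for Ccr7, -0.0893 to 0.56 for Cd69 and -0.92 to 0.29 for Foxo1. The interaction ran from -0.87 to 0.15 for Klf3, -1.72 to 0.13 for S1pr1, -0.25 to 0.19 for S1pr4, -0.77 to 0.41 for Ccr7, -0.0889 to 0.56 for Cd69 and -0.79 to 0.42 for Foxo1. Over all genes, 4002 were called on activation in KO and 4107 in WT cells, 43.5% and 47.2% of them higher. Quantile normalization made that share 55.3% and 58.6%, and centring on the median 52.5% and 56.3%. Array weights called 6932 and 6930 genes, the test of every row 7526 and 7687 (more rows tested), and the 6 KO arrays with the block 2330. Between native genotypes 0 genes were called, against 14 in the 6 arrays with the block, 2 with array weights, 2 over every row, 1 without dim genes, 1 with a trended, robust prior, 10 without native KO array 2, and 1 each without native KO array 3 or native WT array 1. Signal at or under background on activated KO array 3 limits the size of the Klf2, Klf3 and S1pr1 losses.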

Other observations

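Between activated arrays of the same number, KO lay below WT at all 3 numbers for Klf2 (by -0.27, -0.70 and -0.45 for arrays 1, 2 and 3), Klf3 (-0.32, -0.50 and -0.28) and S1pr1 (-1.08, -1.03 and -0.32). Foxo1 differed by 0.00374 and 0.08 on arrays 1 and 2 and by -1.27 on array 3, and Cd69 by 0.51, 0.89 and -0.64. S1pr4 differed by 0.15, -0.26 and -0.46, and Ccr7 by 0.15, -0.21 and -0.77. These are values without a test, since a pairing of the activated arrays by number was not established. The share of all genes below 0 at every number was not counted.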
